A study of Mus musculus with 8 samples.

Results

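The genes of MHC class I and class II antigen presentation were followed in brown adipose tissue (BAT), a fat depot that burns lipid to make heat, in wild-type (WT) and db/db mice. They were 10 genes chosen by symbol, of 31053 genes in the count table. Class II was represented by H2-Aa, H2-Ab1, H2-Eb1, Cd74 and H2-DMa, class I by H2-K1, H2-D1 and B2m, and peptide loading of class I by Tap1 and Tapbp. All 10 were found by Ensembl identifier, all 10 had counts in every library and all 10 passed the filter on low counts.

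The series held 8 bulk RNA-seq libraries, 4 from WT and 4 from db/db mice, and the labels gave an age of 8 weeks for all of them. The study's methods describe male mice whose tissue was taken after a fast. They name different suppliers for the WT and the db/db animals, while the list of materials names the same supplier for both. The db/db mice are homozygous for a mutation of the leptin receptor gene Lepr that makes them obese from a young age, and the mutation is present in every cell of the animal. No library held a count of Lepr (0 in all 8), which leaves the genotype labels without a check on the mutated gene.

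The strain bears on these genes, because the H2 genes are among the most polymorphic of the mouse genome and the reference is that of C57BL/6J. The labels give C57BL6/J for all 8 samples, and the methods name a db/db line on a C57BL/6 background. The catalogue entry in the study's list of materials is that of the db/db stock on C57BLKS/J, a strain with another H2 haplotype. The haplotype of the animals was not determined here, so genotype and any difference in haplotype or supplier cannot be told apart. H2-Ea-ps, whose transcript differs between these haplotypes, was not analysed here.

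MHC class I molecules sit on nearly all nucleated cells and show peptides from the cytosol, which the TAP transporter carries into the endoplasmic reticulum, where tapasin helps to load them onto a heavy chain paired with β2-microglobulin. Class II molecules are made mainly by macrophages, dendritic cells and B cells and show peptides from the endosomes. Their α and β chains travel there with the invariant chain CD74, which proteases trim and H2-DM then exchanges for peptide. In adipose tissue both routes are known mostly from its immune cells, although adipocytes can also make class II molecules.

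Of the 10 genes, 8 lie on chromosome 17 of GRCm38, in or beside the H2 region. From the centromeric side these are Tapbp (33915899 to 33929292, plus strand), H2-K1 (33996017 to 34000347, minus), H2-DMa (34119541 to 34139101, plus), Tap1 (34187553 to 34197225, plus), H2-Ab1 (34257689 to 34269419, plus), H2-Aa (34282744 to 34287823, minus), H2-Eb1 (34305867 to 34316674, plus) and H2-D1 (35262730 to 35267499, plus). B2m lies on chromosome 2 (122147686 to 122153083, plus) and Cd74 on chromosome 18 (60803848 to 60812652, plus).

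The promoters are shown first, and the sequences let the members be compared before their values are. Of the 10 genes, 8 had a promoter entry in the RefSeq table for GRCm38.p6, and H2-Ab1 and Cd74 are named only. The stretches printed end at the base before the transcription start and hold no annotated exon. Capitals mark matches, on either strand, to 5 short motifs: the X1 box CTNGCAAC and the Y box CTGATTGG of class II promoters, the core TGACG of the X2 box and of the cyclic AMP response element, the κB site GGGATTCCC and the interferon element GAANNGAAA of class I promoters. These motifs are not confined to a class, since the class I gene H2-D1 also held an X1 box and a Y box. The sequences are H2-Aa at chr17:34287824-34288073 (minus strand), H2-Eb1 at chr17:34305721-34305866 (plus strand) and H2-K1 at chr17:34000348-34000597 (minus strand).

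H2-Aa: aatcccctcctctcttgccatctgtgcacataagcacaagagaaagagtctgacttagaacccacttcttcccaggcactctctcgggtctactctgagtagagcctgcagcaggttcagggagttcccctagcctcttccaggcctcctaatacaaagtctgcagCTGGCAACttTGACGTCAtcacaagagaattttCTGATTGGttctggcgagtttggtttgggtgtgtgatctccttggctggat
H2-Eb1: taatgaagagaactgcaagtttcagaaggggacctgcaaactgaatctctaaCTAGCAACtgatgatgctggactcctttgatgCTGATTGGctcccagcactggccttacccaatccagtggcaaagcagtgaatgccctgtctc
H2-K1: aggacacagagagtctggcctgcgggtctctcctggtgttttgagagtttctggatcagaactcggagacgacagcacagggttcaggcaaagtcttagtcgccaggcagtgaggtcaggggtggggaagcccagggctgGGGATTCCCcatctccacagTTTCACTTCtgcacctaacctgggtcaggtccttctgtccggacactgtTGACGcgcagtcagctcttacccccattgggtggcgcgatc

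The class II genes H2-Aa and H2-Eb1 both held an X1 box followed by a Y box. In H2-Aa the X1 box began 84 bases and the Y box 51 bases before the start, and in H2-Eb1 they began 94 and 62 bases before it. H2-Aa held the letters TGACG on both strands between those boxes, as overlapping matches in a single palindrome, and H2-Eb1 held none. Over the 250 bases upstream of 32851 promoter entries, an X1 box was found in 2.84%, a Y box in 3.83% and the core TGACG in 17.8%.

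The class I gene H2-K1 held the κB site, beginning 110 bases before the start, and the interferon element, beginning 90 bases before it, and had neither an X1 nor a Y box in this window. H2-D1, whose upstream stretch overlaps an annotated exon and is not printed, held the same pair of elements beginning 170 and 150 bases before its start, and also an X1 box and a Y box. The κB site was in 0.301% and the interferon element in 6.31% of all promoter entries. Where they could be aligned, the 250 bases upstream of H2-K1 and H2-D1 were identical at 174 of 190 positions (91.6%). B2m held only the core TGACG, Tap1 held that core and a Y box, and neither Tapbp nor either H2-DMa entry held any of the 5 motifs. A match is a stretch of letters and not a measured binding site.

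**Figure D1:**
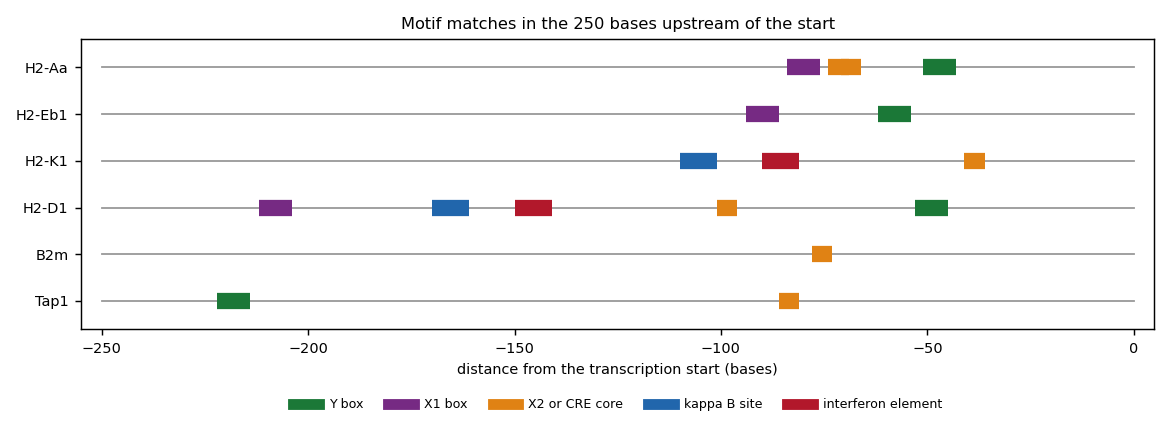
Matches to the 5 motifs in the 250 bases upstream of the transcription start (x axis, distance in bases, with the start at 0) of 6 genes, 1 line per gene and 1 colour per motif. The X1 and Y boxes stand within 94 bases of the start in H2-Aa and H2-Eb1, and the κB site and interferon element stand side by side in H2-K1 and H2-D1.

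Levels are given as counts per 1000000 counts (CPM), scaled by the TMM method, which corrects for the makeup of each library, and a difference was called where the adjusted p of edgeR's quasi-likelihood test over all genes was under 0.05. Libraries held 2374079 to 3240074 counts, and 3 counts, taken as the smallest detectable level, corresponded to 0.926 to 1.26 CPM of those totals. The labels name no dissection date, litter or batch. The study describes the 4 replicates of each genotype as separate mice. The part of each transcript that the libraries sampled is not stated, so levels are not compared between genes.

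Of the 10 genes, 8 were higher in db/db BAT and none was lower. With the summed level of skeletal muscle genes, which was higher in db/db as described further on, as a further term in the fit, 0 of the 10 were called. The call was made for 4 of 5 class II genes, 3 of 3 class I genes and 1 of 2 loading genes, against 27.7% of 9264 genes tested that were called in either direction and 15.8% that were called higher. Class II genes differed by a median log2 fold change of 1.14, class I genes by 0.54 and loading genes by 0.36, beside 0.0066 over all genes tested. In bulk tissue, fewer cells of a type and less RNA per cell cannot be told apart, nor can more cells and more RNA per cell.

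H2-Aa encodes the α chain of the class II molecule I-A. Its level was 80.1, 82.7, 107 and 104 CPM in WT replicates 1 to 4 and 311, 183, 182 and 194 CPM in db/db replicates 1 to 4. The genotypes did not overlap, and db/db replicate 1 stood well above the other 3. The mean was 93.4 ± 13.9 CPM for WT against 217 ± 62.5 CPM for db/db (SD, 4 libraries each), a log2 fold change of 1.22 (SE 0.18, adjusted p = 6.89e-05).

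H2-Ab1, the β chain that pairs with it, was at 51.8, 23.6, 40.2 and 45.8 CPM in WT and at 132, 73.2, 73.1 and 90.4 CPM in db/db. Again the lowest db/db library was above the highest WT library. The mean level was 40.4 ± 12.1 CPM in WT and 92.3 ± 27.9 CPM in db/db, and the log2 fold change was 1.20 (SE 0.23, adjusted p = 6.74e-04).

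H2-Eb1 encodes the β chain of the second class II molecule, I-E, whose α chain C57BL/6 mice do not make. WT libraries held 76.9, 47.7, 61.3 and 49.7 CPM and db/db libraries 189.5, 117, 87.8 and 125 CPM. The groups did not overlap, with db/db replicate 3 nearest to WT and replicate 1 farthest. The log2 fold change was 1.14 (SE 0.21, adjusted p = 4.99e-04). H2-Eb1 shares its place with an antisense gene, and since the use of strand in counting is not stated its counts are uncertain to that extent.

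Cd74 encodes the invariant chain, which blocks the peptide groove of new class II molecules and directs them to endosomes. It was at 76.9, 54.0, 43.2 and 46.3 CPM in WT and at 167, 99.3, 106 and 114 CPM in db/db. No WT library reached the lowest db/db library, and WT replicate 1 was the highest of its group. The mean went from 55.1 ± 15.2 to 122 ± 30.9 CPM, a log2 fold change of 1.14 (SE 0.20, adjusted p = 2.95e-04). Cd74 contains the annotated microRNA gene Mir5107, with which it can share reads.

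The fold changes of these 4 genes lay between 2.21 and 2.33, and their log2 values differed from each other by less than any of their standard errors. H2-DMa, the α chain of the peptide exchanger H2-DM, was the class II member that did not pass the test. Its level was 5.26, 5.49, 5.26 and 8.49 CPM in WT and 15.9, 10.8, 7.09 and 8.93 CPM in db/db. The db/db replicate 3 was below WT replicate 4, so the groups overlapped. The log2 fold change was 0.82 (SE 0.33, adjusted p = 0.0709), from 13 to 20 counts per library in WT. Its annotated span overlaps Brd2, a pseudogene and a pair of antisense genes, so its counts are uncertain.

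Without db/db replicate 1, the library with the highest level of all 8 for 8 of the 10 members, the same 4 class II genes were called. H2-Aa then had a log2 fold change of 0.99 (SE 0.14), H2-Ab1 of 0.96 (SE 0.21), H2-Eb1 of 0.90 (SE 0.18) and Cd74 of 0.94 (SE 0.18), with adjusted p between 3.87e-05 and 1.95e-03. H2-DMa had a log2 fold change of 0.55 (adjusted p = 0.279).

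Class I genes had smaller fold changes than the class II chains. H2-K1, the K heavy chain, was at 43.7, 77.7, 101 and 64.9 CPM in WT and at 142, 149, 106 and 94.1 CPM in db/db. WT replicate 3 was above db/db replicate 4, so the groups overlapped there and nowhere else. The mean was 71.9 ± 24 CPM in WT and 123 ± 26.9 CPM in db/db, a log2 fold change of 0.77 (SE 0.21, adjusted p = 0.0109).

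H2-D1, the D heavy chain, was at 554, 580, 777 and 582 CPM in WT and at 1097, 983, 795 and 738 CPM in db/db. WT replicate 3 again stood above db/db replicate 4, and the other 3 WT libraries lay close together. The mean rose from 623 ± 104 to 904 ± 166 CPM, a log2 fold change of 0.54 (SE 0.16, adjusted p = 0.0155). That call was lost when WT replicate 1, 2 or 4 was left out, with adjusted p between 0.0565 and 0.0596.

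B2m, the light chain that every classical heavy chain needs at the cell surface, was at 1430, 1142, 1408 and 1195 CPM in WT and at 2247, 1851, 1543 and 1551 CPM in db/db. The groups did not overlap, but WT replicate 1 and db/db replicate 3 were near each other. The means were 1294 ± 146 and 1798 ± 332 CPM, and the log2 fold change was 0.47 (SE 0.15, adjusted p = 0.0243). The call for B2m was lost when WT replicate 2 or 4 or db/db replicate 1 or 2 was left out, with adjusted p from 0.0539 to 0.0925. Part of B2m lies in the span of Patl2 on the other strand, so its counts are uncertain to that extent.

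The K and D heavy chains are near copies of each other: their longest coding transcripts were identical at 1340 of 1470 aligned bases (91.2%). Of the 75-base words in the H2-K1 transcript, the length of the reads, 1.55% also occurred in another gene, and in H2-D1 7.1% did, mostly in H2-Q1 and other class I genes. Reads from those stretches could be dropped or split by the counting, and alleles of another haplotype may share fewer words with the reference. The class II chains, Cd74, H2-DMa and B2m shared no 75-base word with any other gene. With the counts of the class I heavy chains summed into a single feature, that feature was higher in db/db by 0.55 on the log2 scale (SE 0.16, adjusted p = 0.0150).

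**Figure D2:**
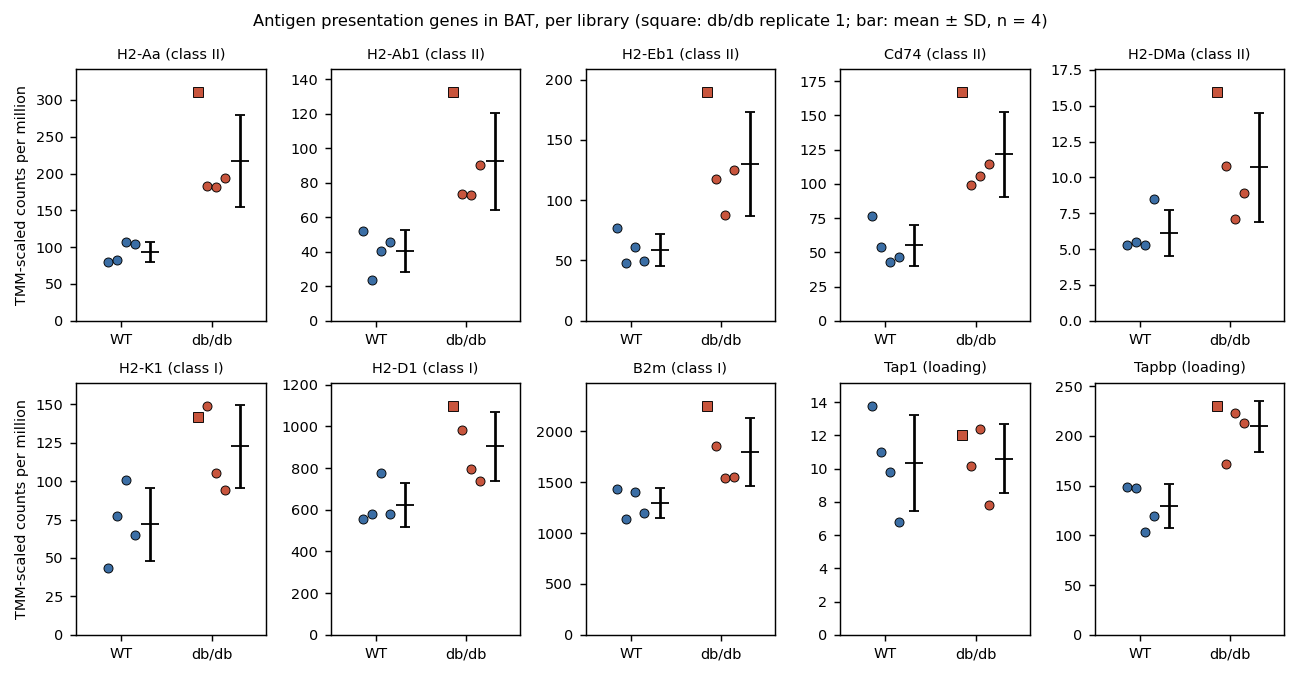
TMM-scaled CPM (y axes, linear and starting at 0) of the 10 genes in each of the 4 WT (blue) and 4 db/db (red) libraries, with db/db replicate 1 as a square and the mean ± SD beside the points. WT and db/db do not overlap for H2-Aa, H2-Ab1, H2-Eb1, Cd74, B2m and Tapbp, and they overlap for H2-DMa, H2-K1, H2-D1 and Tap1.

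The genotypes did not overlap, with db/db higher, for 6 of the 10 genes, namely 4 of class II, 1 of class I and 1 of loading. Among all genes tested 15.3% separated in that direction and 28.1% in either.

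Both loading genes act on class I in the endoplasmic reticulum, and they differed from each other in their values. Tapbp encodes tapasin, which bridges the heavy chain to the TAP transporter. It was at 149, 148, 103 and 120 CPM in WT and at 230, 172, 223 and 212 CPM in db/db, with no overlap and with db/db replicate 2 lowest of its group. The mean rose from 130 ± 22.2 to 209 ± 25.9 CPM, a log2 fold change of 0.69 (SE 0.15, adjusted p = 1.96e-03). Tapbp overlaps Zbtb22 and an antisense gene, and 17.5% of its 75-base words occurred in another annotated gene, almost all in that antisense gene, so the count is uncertain.

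Tap1 encodes the first chain of the TAP transporter. Its level was 13.8, 10.97, 9.77 and 6.79 CPM in WT and 12.0, 10.2, 12.4 and 7.81 CPM in db/db. The values of the genotypes were interleaved. The log2 fold change was 0.04 (SE 0.28, adjusted p = 0.941), and its 95% interval ran from -0.52 to 0.59, which includes the size seen in H2-D1, at 16 to 40 counts per library. Tap1 overlaps the 5′ end of Psmb9, and 4.79% of its 75-base words were shared with it. The sign of its fold change turned in some of the alternative fits, with values down to -0.13.

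Class II and class I were compared within each library, as the mean log2 CPM of the 5 class II genes minus that of the 3 class I genes. That difference was -2.92, -3.54, -3.69 and -3.15 in WT and -2.59, -3.18, -3.01 and -2.66 in db/db. The genotypes overlapped, since WT replicates 1 and 4 lay within the db/db range. The mean was -3.33 ± 0.36 for WT against -2.86 ± 0.28 for db/db (SD, 4 libraries each), a shift of 0.46 towards class II. It stayed between 0.34 and 0.60 when any single library was left out. Each value only compares libraries, since the difference also depends on which part of each transcript was sampled. No test was made of this score, because its genes were chosen with results known.

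As sums of CPM, the 5 class II genes lay between 214 and 291 in WT against 456 to 815 in db/db, and the means of 254 and 572 gave a ratio of 2.25. The 3 class I genes lay between 1799 and 2287 in WT against 2383 to 3486 in db/db, with a ratio of means of 1.42. Neither sum overlapped between the genotypes.

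**Figure D3:**
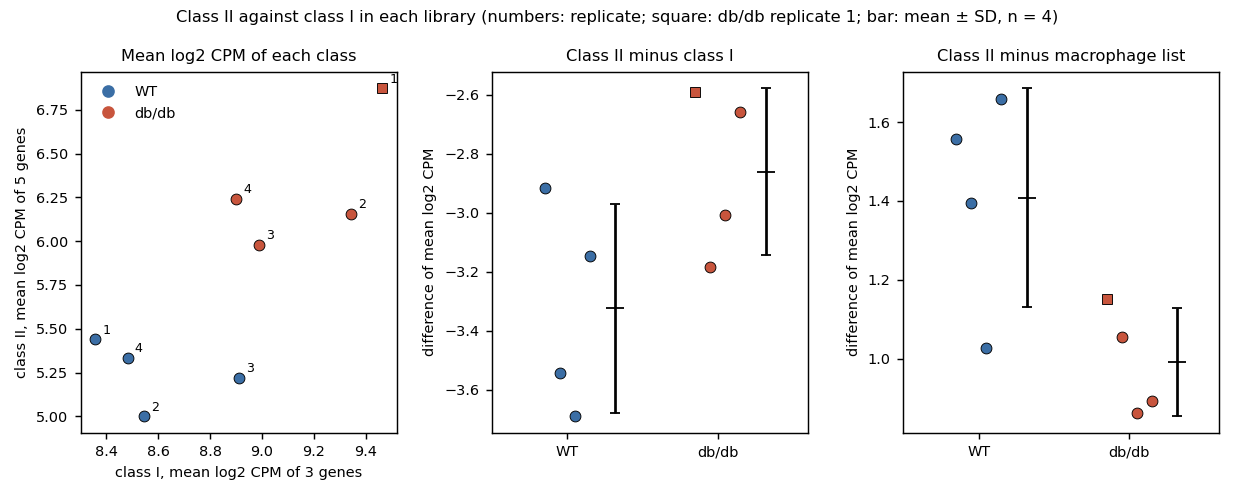
Left, mean log2 CPM of the 5 class II genes (y axis) against that of the 3 class I genes (x axis) in each library. Middle and right, the class II mean minus the class I mean and minus the mean of the macrophage list, with mean ± SD (n = 4). The middle values overlap between WT (-3.69 to -2.92) and db/db (-3.18 to -2.59), and on the right WT replicate 3 lies among the db/db libraries.

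Within genotypes, members of a class tended to vary together from mouse to mouse. Over deviations from the genotype means in 8 libraries, Pearson's r between pairs of class II genes had a median of 0.57 (0.25 to 0.78, 10 pairs), and between pairs of class I genes 0.76 (0.29 to 0.83, 3 pairs). Across the classes it had a median of 0.46 and ranged from -0.44, for Cd74 and H2-K1, to 0.88, for H2-Eb1 and B2m. The heavy chains H2-K1 and H2-D1 had an r of 0.83, to which reads shared between them can contribute. These are descriptions over 8 libraries that share db/db replicate 1 as the highest point for most genes.

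Outside the lists used here, the genes whose deviations were most like the class II mean were C3, Tcf7l1, Trmt6, Pfdn5 and Tmem123, with r from 0.957 to 0.98. For the class I mean they were Tent5a, Cog8, Slc6a6, Lamp2 and Sdhaf4, with r from 0.919 to 0.954. Of 4475 genes with at least 20 CPM, 22 had an r over 0.9 with the class II mean and 7 with the class I mean. C3, the central complement component, had the highest r with class II and was lower in db/db, at 94.9 CPM against 230 CPM in WT (log2 fold change -1.27, SE 0.19, adjusted p = 7.07e-05). Tcf7l1 was higher in db/db (1.05, SE 0.18, adjusted p = 3.10e-04), as was Tent5a, the gene most like class I (1.03, SE 0.18, adjusted p = 3.64e-04). Slc6a6 was lower (-0.49, SE 0.15, adjusted p = 0.0232), and the other 6 of these 10 genes were not called, with adjusted p from 0.0701 to 0.893.

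Beyond the members, 9 lists of pathway genes held 63 genes in the table, of which 35 were tested. There were 11 higher, 1 lower and 23 not called, beside 15.8% of all genes tested that were higher and 27.7% called in either direction, and the median log2 fold change was 0.16. With the skeletal muscle term in the fit, 1 of these genes was higher and 0 were lower. Among the 11 higher, H2-DMb1, Lgmn, Mr1 and Cd83 passed the filter on low counts only through db/db. Their calls are not read as results.

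On the class II side, 1 gene of the peptide exchangers outside the members was abundant enough to be tested. H2-DMb1, a β chain of H2-DM, was at 10.9, 5.49, 8.27 and 3.82 CPM in WT and at 31.9, 17.5, 12.9 and 15.6 CPM in db/db. The groups did not overlap (log2 fold change 1.45, SE 0.34). With 27, 13, 22 and 9 counts in WT, H2-DMb1 passed the filter on low counts only through db/db, so its call is not read as a result. H2-DMb2, the near copy beside it, had 2 counts in WT replicate 3, 30 in db/db replicate 1, 5 in db/db replicate 4 and 0 elsewhere, too few for the fit. Of the chains of H2-DO, which restrains H2-DM, H2-Oa had at most 1 count in any library, and H2-Ob had 7 counts in db/db replicate 1 and at most 1 in each of the others. H2-Eb2 had 0 counts in all 8 libraries.

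Of the 3 proteases tested, Ctss and Ctsl were higher. Ctss, the cathepsin that makes the last cuts in the invariant chain in professional presenting cells, was at 6.07 to 8.91 CPM in WT and at 86.0, 65.9, 44.3 and 93.7 CPM in db/db. This was 9.14-fold (log2 fold change 3.19, SE 0.25, adjusted p = 6.56e-08), well above the fold of the class II chains. Ctsl, cathepsin L, rose by a log2 fold change of 1.17 (SE 0.18), with no overlap. Lgmn, the asparaginyl endopeptidase, had a log2 fold change of 1.62 (SE 0.43). With 8, 27, 24 and 4 counts in WT it passed the filter on low counts only through db/db, so its call is not read as a result. March1, the ubiquitin ligase that takes class II molecules off the surface, was too low for the fit. It lay between 0 and 1.27 CPM in WT against 1.33 to 3.91 CPM in db/db, without overlap (exact two-sided permutation test, p = 0.0286, the smallest possible with 4 against 4). The nearest libraries, WT replicate 4 and db/db replicate 3, both held 3 counts, so that scaling alone set them apart.

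Among the factors that read the X and Y boxes, Ciita, the transactivator on which class II expression depends, was also below the filter. It was at 2.43, 0.84, 1.13 and 0.85 CPM in WT and at 4.51, 2.55, 2.66 and 3.72 CPM in db/db. The groups did not overlap, though the lowest db/db library and WT replicate 1 nearly met (exact two-sided permutation test, p = 0.0286). WT replicate 1 and db/db replicate 3 both held 6 counts. The RFX subunits, which bind the X box, were not called: Rfxank had a log2 fold change of -0.62 (SE 0.36, adjusted p = 0.209) and Rfxap of 0.01 (SE 0.25), and Rfx5 was too low to be fitted and was at 2.83 ± 0.82 CPM in WT and 4.10 ± 0.68 CPM in db/db (exact two-sided permutation test, p = 0.0571).

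On the class I side, of the other heavy chains of the H2 region, 15 were in the table and 2 were tested, H2-T22 with a log2 fold change of 0.19 (SE 0.28) and H2-Q7 with -0.37 (SE 0.42). Class I-like molecules encoded elsewhere were called in 3 of 4 cases, of which that of Mr1 is not read as a result. Hfe, which takes part in iron sensing, was at 9.71, 10.13, 9.77 and 6.37 CPM in WT and at 34.9, 28.0, 16.4 and 26.8 CPM in db/db (log2 fold change 1.56, SE 0.26, adjusted p = 2.04e-04). Cd1d1, which shows lipids to NKT cells, rose by 0.52 (SE 0.17) on the log2 scale. Mr1, which shows vitamin B metabolites to MAIT cells, had a log2 fold change of 1.36 (SE 0.37). With 10, 27, 10 and 7 counts in WT, Mr1 passed the filter on low counts only through db/db. Fcgrt, the neonatal Fc receptor, had a log2 fold change of -0.22 (SE 0.13, adjusted p = 0.205).

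The remaining loading genes were divided. Tapbpl, a tapasin-like peptide editor, was higher (0.67, SE 0.23, adjusted p = 0.0411, with overlap between the genotypes) and so was Sec61b, a subunit of the translocon (0.76, SE 0.20), whereas Sec61a1, its channel subunit, was lower (-0.45, SE 0.16, adjusted p = 0.0408), all as log2 fold changes. The calls for Tapbpl and Sec61a1 were both at the edge, and that for Sec61a1 was lost when WT replicate 1, 3 or 4 or db/db replicate 2 or 3 was left out. Tap2, Calr, Canx, Pdia3 and Erap1 were not called. Calr, the chaperone calreticulin, came nearest, with a log2 fold change of 0.35 (SE 0.13, adjusted p = 0.0520).

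Genes of the immunoproteasome, which makes class I peptides, and of interferon-γ signalling gave few calls. None of Psmb8, Psmb9, Psmb10, Psme1, Psme2 and Psme3 was called, with log2 fold changes from -0.16 to 0.16. The limits of the 95% intervals of these 6 genes lay between -0.52 and 0.55. Psmb9, which faces Tap1 across the stretch between their starts, was at 14.7 ± 1.77 CPM in WT and 14.6 ± 4.40 CPM in db/db. Irf1, a transcription factor of the interferon response, had a log2 fold change of -0.17 (SE 0.19), and of 7 genes tested in the list only Ifngr1, a chain of the interferon-γ receptor, was called, at 0.49 (SE 0.15, adjusted p = 0.0190). Ifng had 0 counts in all 8 libraries. Nlrc5, the class I transactivator, was at most 3.61 CPM (exact two-sided permutation test, p = 0.2571). In the co-stimulation list Cd83, which keeps class II molecules on the surface, had a log2 fold change of 1.21 (SE 0.40). With 8, 3, 8 and 14 counts in WT it passed the filter on low counts only through db/db, so its call is not read as a result. Cd274 was not called, and Cd80, Cd86, Cd40, Icam1 and Pdcd1lg2 were too low to be fitted.

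**Figure D4:**
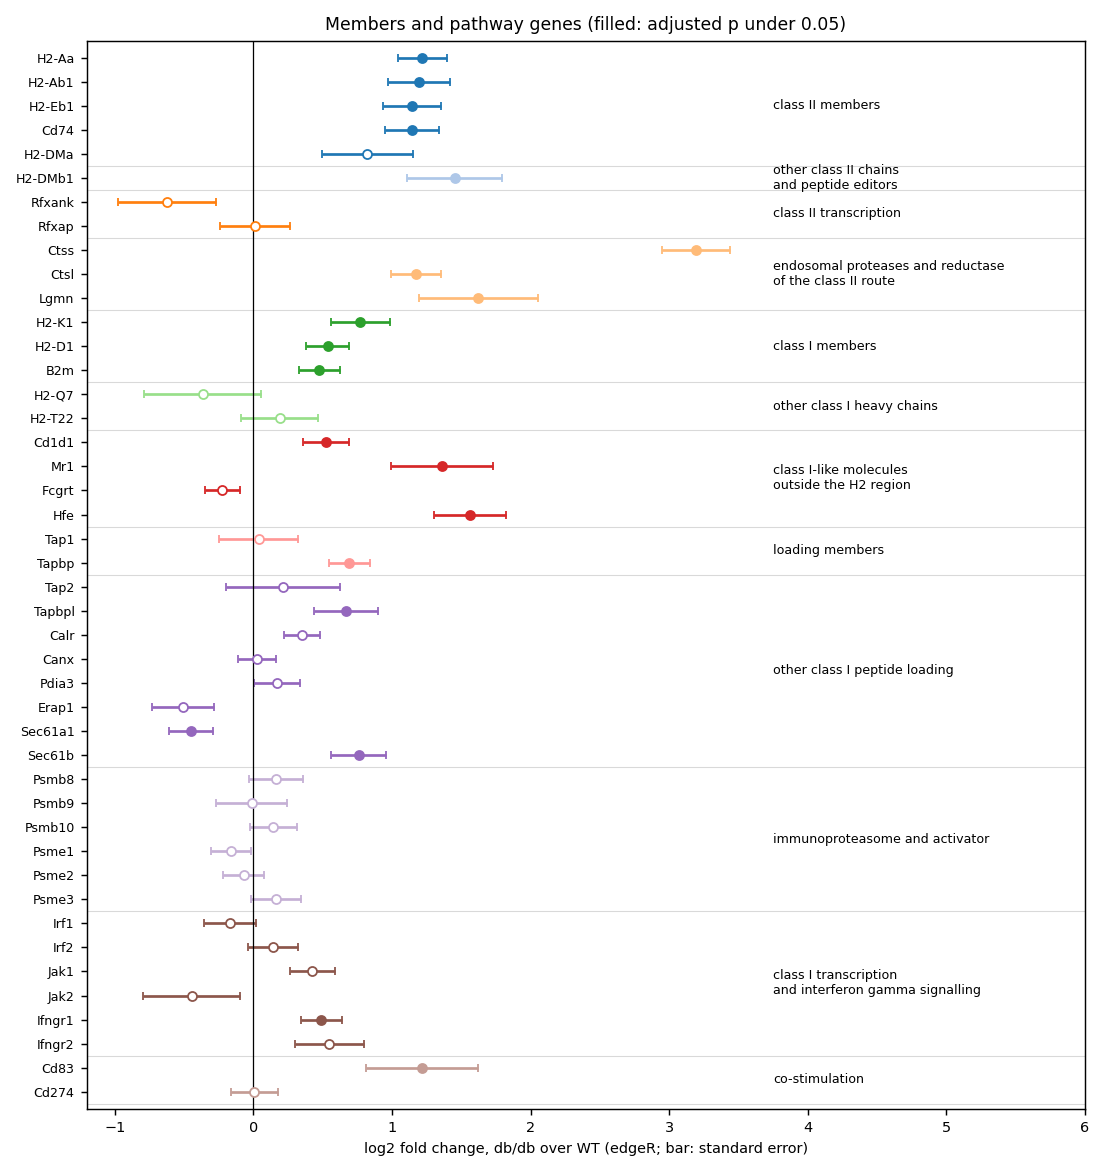
Log2 fold change of db/db over WT (x axis, edgeR) with its standard error for the 10 members and the tested pathway genes reported here, grouped by list, with filled points for an adjusted p under 0.05. The class II chains and Cd74 sit between 1.14 and 1.22, the class I members between 0.47 and 0.77, and the immunoproteasome genes within 0.16 of 0.

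Because class II is made by particular cells, markers of those cells were read in the same libraries. Of 12 macrophage markers tested, 9 were higher and 3 were not called, with a median log2 fold change of 2.12. Among the 9, Adgre1, Cd68 and Itgam passed the filter on low counts only through db/db. Their calls are not read as results, although the count and the median include them. The summed level of all 13 lay between 231 and 277 CPM in WT against 796 to 1368 CPM in db/db. Lyz2 rose by 2.79, C1qb by 2.41 and C1qc by 2.18 on the log2 scale, each more than any of the class II members, and Cd14 and Mertk were among those not called. Per library, the class II mean minus the macrophage list's mean log2 CPM was 1.41 ± 0.28 in WT and 0.99 ± 0.14 in db/db, with WT replicate 3 inside the db/db range.

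Dendritic cell markers were sparse. Itgax was at 0, 1.69, 0 and 0 CPM in WT and at 7.22, 4.14, 7.54 and 7.81 CPM in db/db. With 0, 4, 0 and 0 counts in WT it passed the filter on low counts only through db/db, so its call is not read as a result. Irf8 was higher (log2 fold change 1.17, SE 0.33), and macrophages also express both genes. Zbtb46 had a log2 fold change of -0.47 (adjusted p = 0.0927), and the other 6 genes were too low to be fitted. Of these, Flt3 and Clec9a had at most 1 count per library in WT and 0 in all 4 db/db libraries, Xcr1 had 0 in all 4 WT libraries and 2, 0, 4 and 2 counts in db/db, and Cd209a had 1, 0, 0 and 0 counts in WT and 4, 3, 0 and 3 in db/db. The summed list of 9 genes lay between 25.9 and 38.4 CPM in WT against 38.1 to 46.9 CPM in db/db and overlapped.

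The B cell list of 6 genes summed to 1.70 to 9.39 CPM in WT and to 16.4 to 67.7 CPM in db/db, nearly all from Ighm. Ighm had 12, 8, 19 and 3 counts in WT and 187, 134, 36 and 108 in db/db. It passed the filter on low counts only through db/db, so its call is not read as a result. The defining genes of the list were at or near 0: Cd79a had 0 counts in all 8 libraries, and Ms4a1 had counts only in db/db replicate 1, at 2.11 CPM. Pax5 was at 3.01 CPM in that same library and at 0 in the other db/db libraries. No T and NK cell marker was abundant enough to be tested. Of the 4 pan leukocyte markers, Laptm5 was higher, by 2.85 on the log2 scale, and Ptprc (1.16, SE 0.45, adjusted p = 0.0625) was not called. Coro1a had 4, 2, 2 and 4 counts in WT and 65, 20, 15 and 27 in db/db. Cd52 had 20, 12, 6 and 11 counts in WT and 168, 68, 43 and 79 in db/db. Both passed the filter only through db/db, so their calls are not read as results.

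The labels give stromal vascular fraction as the cell type and BAT as the tissue. The adipocyte genes Ucp1, Cidea, Adipoq and Plin1 were between 388 and 4787 CPM in every library, so adipocyte RNA was present throughout. Of the 4 brown adipocyte genes tested, Cidea (-1.24, SE 0.17) and Ucp1 (-0.65, SE 0.19) were lower and Plin1 (0.79, SE 0.15) was higher, as log2 fold changes. Among 6 endothelial genes, Kdr and Emcn were lower and 4 were not called. Emcn passed the filter on low counts only through WT, so its call is not read as a result.

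Skeletal muscle RNA also differed, with 10 of 10 muscle genes called higher. Among them, Myh2 passed the filter on low counts only through db/db, so its call is not read as a result. The sum of the 10 lay between 368 and 1316 CPM in WT against 1894 to 9501 CPM in db/db. It was highest in db/db replicate 1, the library that was also highest for most members. Acta1, the actin of the muscle fibre, was at 110 CPM in the lowest WT library and 3977 CPM in that library. With the log2 of the muscle sum as a further term in the fit, none of the 10 members was called, while 421 of all genes were. The log2 fold changes were then 0.57 for H2-Aa (SE 0.28, adjusted p = 0.310), 0.82 for H2-Ab1, 0.95 for H2-Eb1, 0.94 for Cd74, 0.41 for H2-K1, 0.27 for H2-D1, 0.31 for B2m and 0.60 for Tapbp. H2-DMa had a value of -0.03. Since the muscle sum did not overlap between the genotypes, that fit separates them only in part. What the differing makeup of the samples contributes to the members was not tested.

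**Figure D5:**
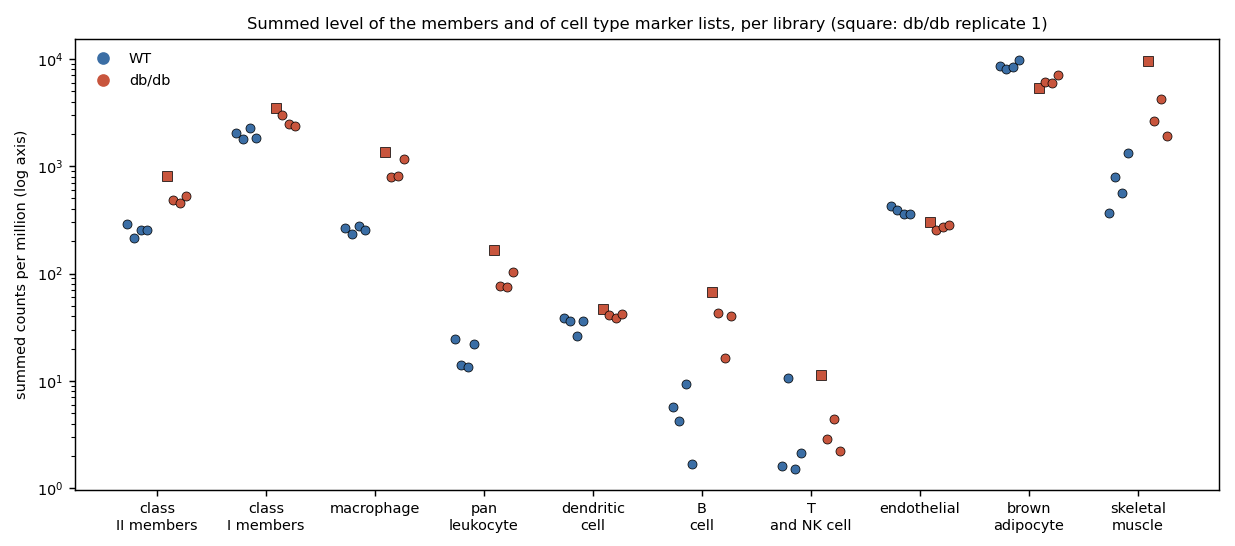
Summed TMM-scaled CPM (log axis) of the class II and class I members and of 8 cell type marker lists in each WT (blue) and db/db (red) library, with db/db replicate 1 as a square. The macrophage sum goes from at most 277 to at least 796 CPM, the dendritic cell and the T and NK cell sums overlap, and the muscle sum is highest in db/db replicate 1.

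The H2 region was then read as a whole, because a haplotype that differs from the reference would touch all its polymorphic genes. Between 33974659 and 37483552 on chromosome 17 the table held 199 genes, 33 of them H2 genes, while H2-Ke6, a dehydrogenase gene, was counted with the others. Of the H2 genes, 12 had no count in any library and 9 were tested, of which 6 were higher and none was lower, namely H2-K1, H2-D1, H2-Aa, H2-Ab1, H2-Eb1 and H2-DMb1. Among these, H2-DMb1 passed the filter on low counts only through db/db. Of the other 166 genes 65 were tested, of which 12 were higher and 7 were lower (29.2%), near the 27.7% of all genes. B2m and Cd74 lie outside the region and were higher as well. H2-T23 had 1, 2, 2 and 2 counts in WT and 0, 0, 0 and 2 in db/db, too few to be fitted (exact two-sided permutation test, p = 0.0571), and the polymorphic chains H2-K1, H2-D1, H2-Aa, H2-Ab1 and H2-Eb1 had at least 165 counts in each db/db library. Reads lost by mismatch to the reference cannot be counted from these data, and what they contribute to the fold changes was not tested.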

How the data were processed

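BAT of 4 WT and 4 db/db mice was measured by bulk mRNA-seq with single-end 75-cycle reads. The study's methods describe trimming with bbduk, alignment to mm10 with STAR and counting with HTSeq-count, whereas the submitters' processing notes name Trimmomatic, HISAT2 and DESeq2. The authors deposited raw counts per Ensembl gene, and neither the use of strand nor of molecular identifiers is stated in the sources used here, so PCR copies may be included. The authors also deposited log2 normalized values, not used here.

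Of 31053 identifiers, 31011 matched GENCODE M21, and the 42 others held at most 0.00213% of the counts of a library. Genes were filtered by filterByExpr (minimum count 10, minimum total 15), scaled by TMM and fitted in edgeR 4.0.16 (R 4.3.3) by genotype alone, and the quasi-likelihood test was adjusted by Benjamini-Hochberg over 9264 genes at 0.05. For genes below the filter, log2 CPM was permuted exactly over the 8 libraries, two-sided (prior count 2, scipy 1.17.1). The p of these permutations were not adjusted for the number of genes so tested. Those printed for Ciita, March1, Rfx5 and H2-T23 are the smallest among the pathway genes. Alternatives used DESeq2 1.42.0 and limma 3.58.1, other scalings and filters, a muscle covariate, the replicate number as a block, and each library left out. The fit was tested on simulated data. Replicates of a genotype differed by more than sampling noise. Promoters came from RefSeq on GRCm38.p6, and 75-base words from GENCODE M21 transcripts.

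The 10 members and all lists were chosen with earlier results of these data known. Besides the members, the genes named are, from each list, at most 4 with an adjusted p under 0.05 by the size of the log2 fold change, and the 5 genes most like each class. Other genes named from the lists were chosen after their values were seen. A few genes of the lists are not reported here.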

Additional observations from a re-analysis of the deposited data

Results flagged for a closer look

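In 6 of 46 sets of 4 libraries examined among the members and the pathway genes named, 1 library lay far from its group by Dixon's criterion (95% level), and about 2.3 such sets would be met by chance. Among the members, H2-Aa was at 311 CPM in db/db replicate 1 and at 182 to 194 CPM in the other db/db libraries. H2-D1 was at 777 CPM in WT replicate 3 and at 554 to 582 CPM in the rest of that group. H2-DMa was at 8.49 CPM in WT replicate 4 and at 5.26 to 5.49 CPM elsewhere in WT. Among class I-like genes, Hfe was at 6.37 CPM in WT replicate 4 against 9.71 to 10.13 CPM, Mr1 at 11.4 CPM in WT replicate 2 against 2.97 to 4.05 CPM, and Cd1d1 at 88.5 CPM in db/db library 4, where the others had 132 to 139 CPM.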

How the results depend on the processing

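Of the 80 comparisons of a member's call or direction with a library left out, 12 changed (7 lost the call, 1 gained it and 4 turned the sign), and of 110 under other alternatives 11 changed (8, 1 and 2). All 8 lost calls of the second kind came from the skeletal muscle term. With it, 0 members were called (0 of class II, 0 of class I and 0 of loading), 1 pathway gene was higher and 0 were lower, and 421 of all genes were called (318 higher and 103 lower), and H2-DMa turned to -0.035. The muscle sum did not overlap between the genotypes, so that term and genotype can be told apart only in part. With at least 10 counts in every library, 0 pathway genes were lower, and H2-DMa passed (0.88, adjusted p = 0.0349). Tap1 turned to -0.012 with every gene with a count, and ran from -0.13 to 0.184 over the fits that left out a library, below 0 without WT replicate 3 or 4 or db/db replicate 1 or 3.

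Leaving out each library gave 6 to 9 members called, 4 to 5 of class II, 1 to 3 of class I and 1 to 1 of loading. The class I count fell to 1 without WT replicate 2 and without WT replicate 4. Pathway genes higher were 8 to 11 and lower 0 to 1, all genes called 2236 to 2483 (1281 to 1435 higher and 889 to 1056 lower), and the shift of class II against class I 0.34 to 0.60. That shift was 0.40 to 0.64 under the other ways of forming it. The cause of these changes was not tested.

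Replicate numbers did not pair the samples: deviations of same-numbered samples correlated at 0.0383, 0.049, -0.0781 and -0.0137. With the replicate block, 8 members were called and 2557 of all genes, and no member's call changed. DESeq2, limma-voom and the other scalings also called 8 members. At 13 to 53 counts per library for H2-DMa and 16 to 40 for Tap1, depth limits what these 2 genes can show.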
